A study of Homo sapiens with 4 samples.

Results

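Ultrasound alone was compared with no treatment in U937, an established line of monocyte-like human blood cells from a lymphoma, on 1 array each of the 4 in the series. The control array held RNA of cells that were cultured at 37°C with no treatment. The ultrasound only array held RNA of cells exposed for 1 min to ultrasound of 0.3 W/cm2 and then kept at 37°C for 3 h, and no incubation time is given for the control in the sources used here. The other arrays, Sonazoid only (0.05% Sonazoid, a contrast agent of gas-filled microbubbles, then 3 h) and the combination (0.05% Sonazoid with the same ultrasound, then 3 h), form a second pair that differs in ultrasound and shares no array with the first. All probe sets with 1 gene symbol were used, 1 probe set a gene, which gave 19775 genes on Affymetrix Human Genome U133 Plus 2.0 arrays. Of these, 13043 were measured, that is, above a floor of 23.8 signal units on at least 1 of the control and ultrasound only arrays. There were no replicates, so every difference below is between single arrays, with no test and no error. Signals are scaled probe set intensities, and differences are on the log2 scale or as folds. Where 4 signals stand in a row, their order is control, Sonazoid only, ultrasound only and combination.

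Low-intensity ultrasound deforms cell membranes and, where gas bubbles collapse in the medium, can open them for a short time. Cells answer membrane, heat and oxidative stress within minutes to hours through kinase cascades that switch on immediate early genes, whose short-lived transcripts encode transcription factors such as FOS and JUN and the phosphatases that shut the cascades down again. Monocyte-like cells such as U937 also hold receptors and signalling proteins of innate immunity, whose transcripts respond to the same kinases.

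The promoters of 3 genes that were among the most strongly higher after ultrasound are shown, because the letters of well-known stress and immediate early elements stand in them. They were chosen from the named genes after the motif search had been run. Each runs 5′ to 3′ from 250 bases before to 50 bases after the transcription start in RefSeq, build GRCh38.p14, and capitals mark the matches. HSPA6, the strictly stress-inducible HSP70 chaperone, lies at chr1:161524290-161524589 (plus strand). FOS, an AP-1 subunit, lies at chr14:75278578-75278877 (plus strand). PPP1R15A (GADD34), which directs the dephosphorylation of eIF2alpha, lies at chr19:48872171-48872470 (plus strand).
HSPA6: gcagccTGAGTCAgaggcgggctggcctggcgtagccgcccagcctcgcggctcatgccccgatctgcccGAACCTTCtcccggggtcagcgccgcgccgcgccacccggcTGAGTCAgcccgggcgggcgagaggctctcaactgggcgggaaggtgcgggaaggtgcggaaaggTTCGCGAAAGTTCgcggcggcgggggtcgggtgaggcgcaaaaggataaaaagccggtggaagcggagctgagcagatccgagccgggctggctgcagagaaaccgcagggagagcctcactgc
FOS: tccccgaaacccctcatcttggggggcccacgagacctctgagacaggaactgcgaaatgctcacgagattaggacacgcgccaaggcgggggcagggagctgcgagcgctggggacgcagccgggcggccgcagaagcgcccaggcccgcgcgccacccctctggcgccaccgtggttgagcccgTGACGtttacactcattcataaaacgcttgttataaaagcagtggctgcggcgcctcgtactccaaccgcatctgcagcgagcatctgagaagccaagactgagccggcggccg
PPP1R15A: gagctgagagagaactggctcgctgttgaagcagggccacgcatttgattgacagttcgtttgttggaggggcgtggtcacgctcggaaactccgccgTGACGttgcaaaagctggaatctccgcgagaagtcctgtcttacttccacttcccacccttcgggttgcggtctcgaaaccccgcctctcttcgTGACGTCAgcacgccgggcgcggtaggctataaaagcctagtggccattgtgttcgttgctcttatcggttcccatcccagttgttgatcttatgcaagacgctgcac

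In the HSPA6 promoter, heat shock element pairs were matched as GAAAGTTC at -69 to -62, TTCGCGAA at -74 to -67 (overlapping the former by 3 bases) and GAACCTTC at -180 to -173, counted from the start. The AP-1 letters TGAGTCA stood there at -139 to -133 and -244 to -238. The FOS promoter held the cAMP response element core TGACG at -64 to -60. The PPP1R15A promoter held the full element TGACGTCA at -58 to -51 and a further TGACG at -152 to -148. The promoters of RGS2 and IFIT1 held that core on the opposite strand, as CGTCA, at -181 to -177 and -143 to -139. Other genes described below held it as well, among them DUSP1 (with the full element), KLF4, FOSB, JUN and JUNB. Many did not: KLF6 and TSC22D3 held none of the motifs searched. HSPA6, ANXA1, DDIT4, PHLDA1, KLF2, ATF3, VIM and SGK1 held no TGACG on either strand. The full element also stood in the promoters of CCNA2 and MCM10, which were not 1.5-fold different on their brightest probe sets.

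Both strands were searched for TGACGTCA, for its core TGACG (which the former contains), for TGANTCA, for the heat shock pairs GAANNTTC and TTCNNGAA and for the serum response CArG box. The core TGACG stood in 25.0% of all 27305 promoters of the table and in 33.4% of the 10529 that belong to measured genes. It stood in 48 of the 161 promoters (29.8%) found for the genes at 2-fold or more higher after ultrasound alone, a smaller share than among measured genes. It stood in 11 of 23 (47.8%) for those with a signal of 200 or more on both arrays, and in 16 of 39 (41.0%) for those 2-fold or more higher in both pairs of arrays. The full TGACGTCA stood in 1.98% of all promoters and 3.09% of those of measured genes, against 3 of the 161 (1.86%), 1 of the 23 (4.35%) and 2 of the 39 (5.13%). TGANTCA stood in 7.76% of all promoters and 4.66% of those of measured genes, against 17 of the 161 (10.6%), 0 of the 23 and 5 of the 39 (12.8%). The shares thus lay above or below those of measured genes depending on which set of higher genes was taken. GAANNTTC stood in 6.87% of all promoters, 4.68% of those of measured genes and 11 of the 161 (6.83%), and TTCNNGAA in 7.84%, 6.26% and 10 of the 161 (6.21%). The CArG box stood in 1.29%, 1.07% and 0 of the 161. These are counts of letters in a 300-base window.

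After ultrasound alone, 215 genes were at least 2-fold higher, 1.65% of the 13043 measured, and 94 were at least 2-fold lower, 0.721%. Among genes with a signal of 200 or more on both arrays, 30 of 6734 (0.446%) were 2-fold or more higher and 2 (0.0297%) were 2-fold or more lower. The higher genes were ranked where both arrays lay above the floor and no other measured probe set of the gene ran the opposite way. The highest there were the 45S precursor of ribosomal RNA, the chaperone HSPA6 and the zinc finger factor KLF6. The glucocorticoid-induced leucine zipper TSC22D3 and the G protein brake RGS2 followed. Outside that ranking, FOSB was under the floor in control and at least 15.1-fold higher. PHLDA1 was 5.96-fold higher, with 1 probe set running the opposite way. At the lower threshold of 1.5-fold, 880 genes were higher (6.75%) and 525 lower (4.03%). In a bulk extract, a larger signal from every cell cannot be told apart from a larger share of responding cells.

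**Figure D1:**
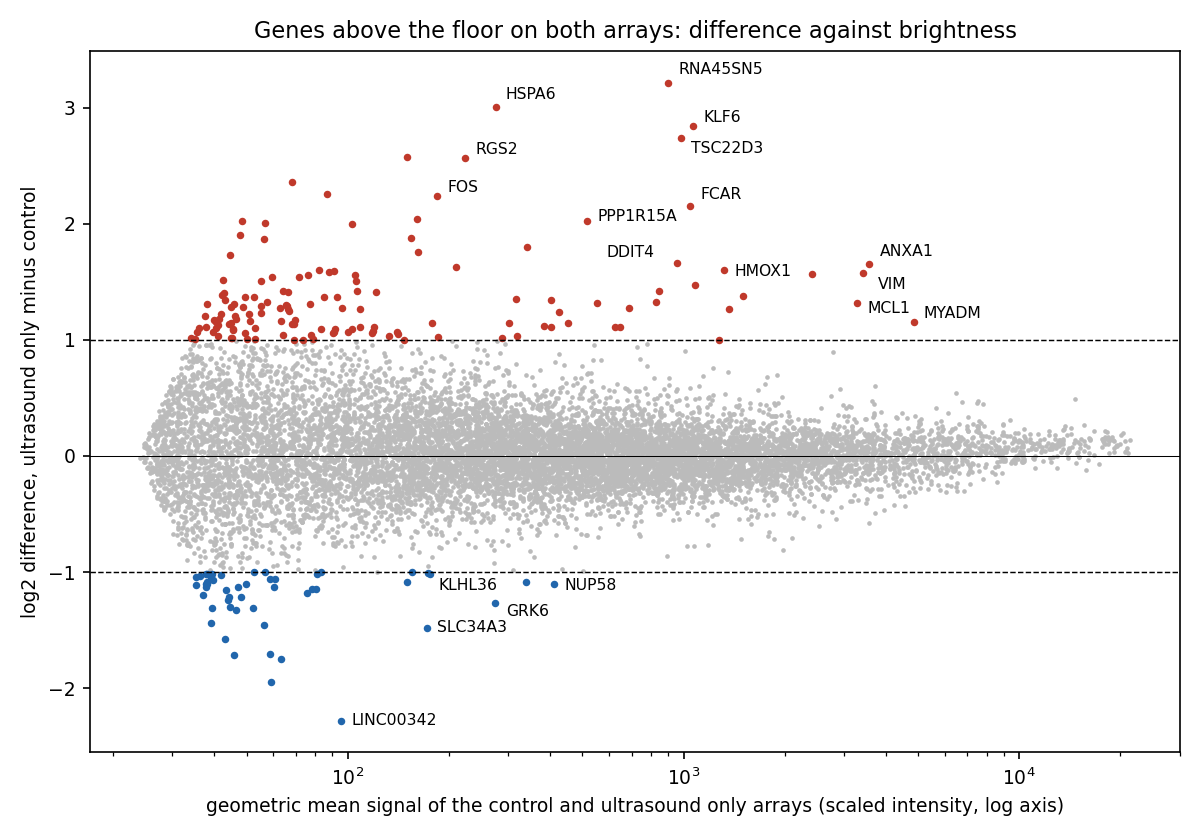
Log2 difference (ultrasound only minus control, y axis) against the geometric mean signal of both arrays (x axis, log scale) for the 11227 genes above the floor on both; red points are at least 2-fold higher, blue points at least 2-fold lower, and dashed lines mark 2-fold. The higher genes reach a log2 difference of 3.22 and extend to bright signals, whereas the lower genes lie mostly at the dim end.

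The spread of the differences depended on brightness. Among genes with a mean signal from the floor to 50, 95% of the differences were smaller than 1.94-fold, and from 50 to 100 also smaller than 1.94-fold. That limit was 1.66-fold from 100 to 200, 1.45-fold from 200 to 1000 and 1.30-fold at 1000 and above. Of the 215 higher genes, 119 stayed under a signal of 95.3 on both arrays, as did 76 of the 94 lower genes. A further measure was the repeat in the pair with Sonazoid, which shares no array. Among the 12009 genes measured in both pairs, 5.61% were at least 1.5-fold higher in the combination than with Sonazoid only and 4.14% at least 1.5-fold lower. At 2-fold these shares were 1.52% and 0.699%. Of the 201 higher genes measured there, 87 (43.3%) were again at least 1.5-fold higher, and 49 of the 201 (24.4%) by 2-fold or more. Of the 86 lower genes measured there, 20 (23.3%) were again at least 1.5-fold lower and 4 at least 2-fold. The Sonazoid only array, without ultrasound, also differed from the same control array in many of these genes. There 65 of the 201 higher genes (32.3%) were at least 1.5-fold above control. Likewise 35 of the 86 lower genes (40.7%) were at least 1.5-fold below it, a larger share than repeated.

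The repeat was most complete for bright genes. Of the genes at least 2-fold higher after ultrasound alone, the second pair repeated 1.5-fold for 11 of 35 with a mean signal from the floor to 50, 12 of 43 from 50 to 100 and 11 of 23 from 100 to 200. From 200 to 1000 it repeated for 21 of 23, and at 1000 and above for 12 of 12. The shares of all genes of those bands that were 1.5-fold higher in the second pair were 16.1%, 12.2%, 5.75%, 1.88% and 0.836%. Higher genes at the floor on 1 array repeated in 20 of 65 cases, against 12.9% of all such genes. For the lower genes the repeats were 7 of 26, 2 of 16, 2 of 5 and 1 of 3 in the bands up to 1000, with no lower gene above it.

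**Figure D2:**
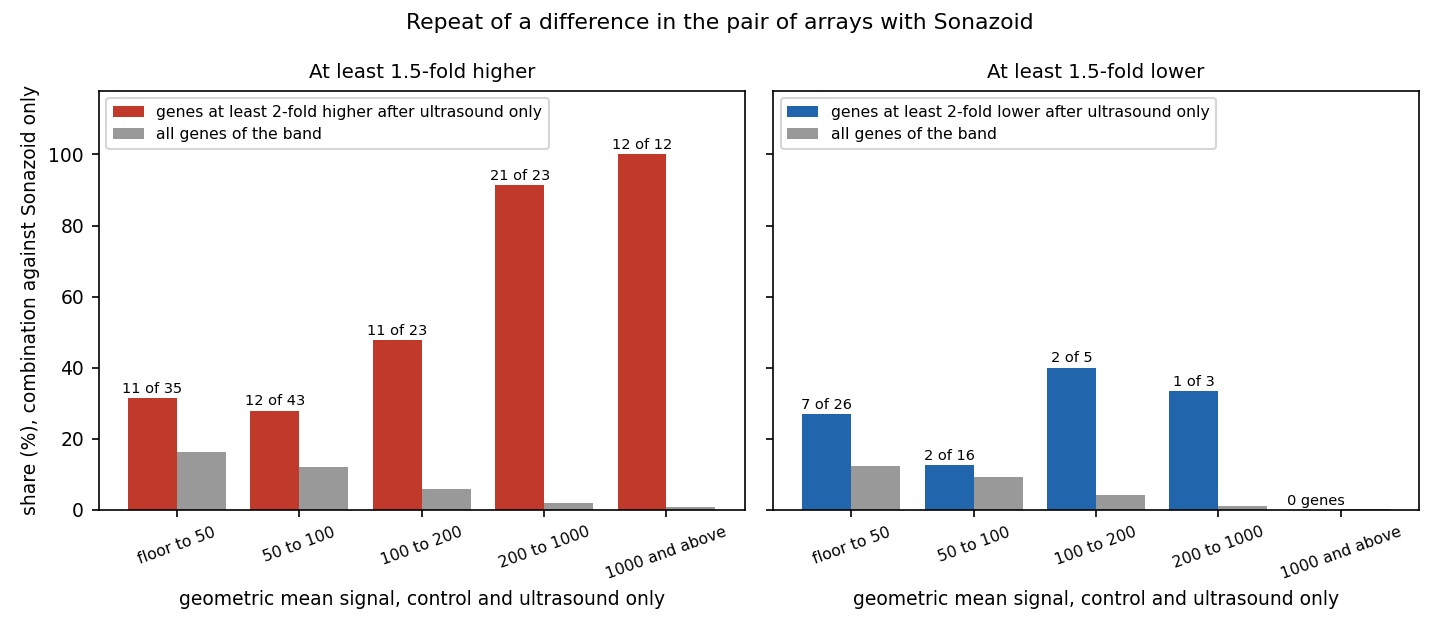
Share of genes (y axis, %) that were at least 1.5-fold higher (left) or lower (right) in the combination than with Sonazoid only, by the geometric mean signal of the control and ultrasound only arrays (x axis); coloured bars are genes at least 2-fold different after ultrasound alone, with their counts, and grey bars are all genes of the band. Among the higher genes the share climbs to 12 of 12 in the brightest band.

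Among the 6734 genes with a signal of at least 200 on both arrays, 1.17% were 1.5-fold higher and 0.653% 1.5-fold lower in the second pair. Of the 30 bright genes that were 2-fold higher, 28 were 1.5-fold higher there and 20 were 2-fold higher. The exceptions were JUNB, an AP-1 subunit, and USF2, a basic helix-loop-helix factor. JUNB read 224 in control and 237 with Sonazoid only, against 458 with ultrasound only and 230 in the combination, so only the ultrasound only array stood high. USF2 read 305, 422, 675 and 359 on the same arrays, and 2 other probe sets of that gene differed by -0.39 and 0.37 between ultrasound only and control. At 1.5-fold, 90 bright genes were higher and 49 of them (54.4%) repeated, whereas 49 were lower and 3 of them (6.12%) repeated. Beyond the largest differences set by rule, the bright genes named below were named to account for that count of 30, after their values were seen.

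**Figure D3:**
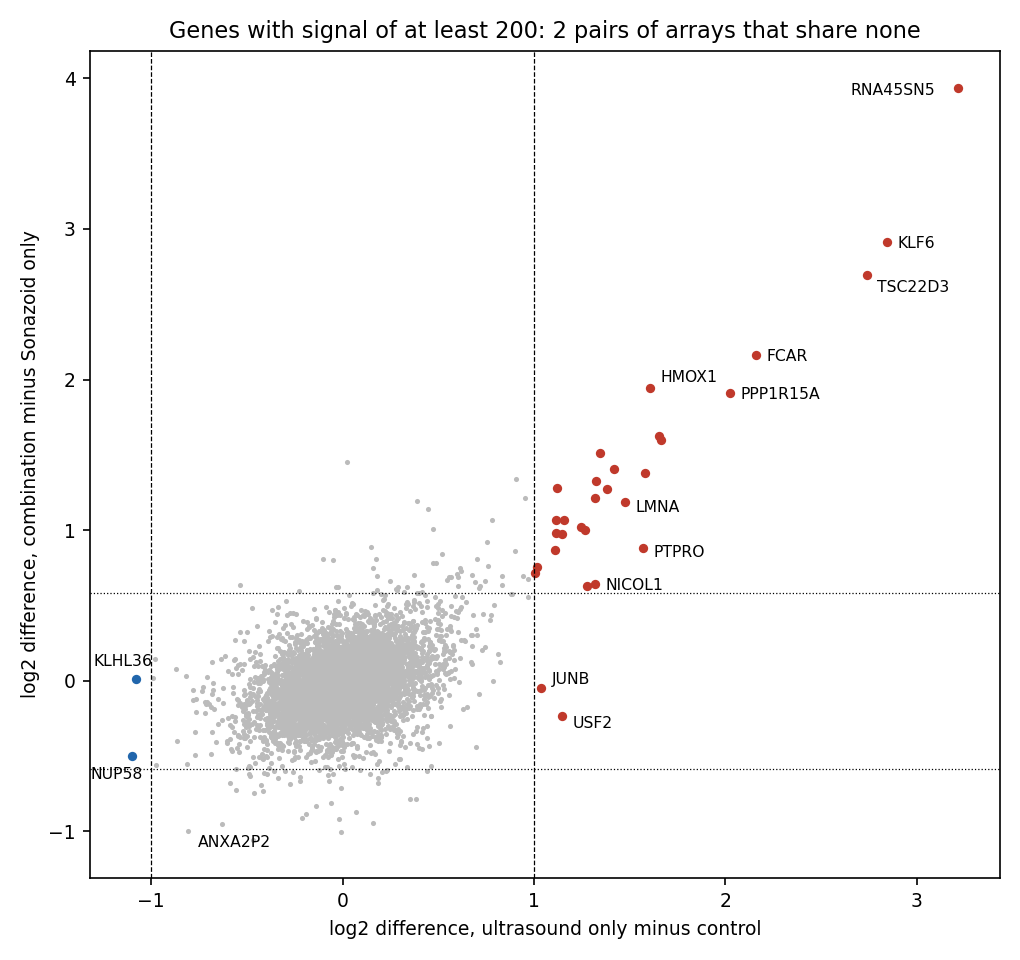
Log2 difference between the combination and Sonazoid only (y axis) against that of ultrasound only from control (x axis) for the 6734 genes with a signal of at least 200 on the control and ultrasound only arrays; red and blue points are 2-fold or more higher or lower after ultrasound alone, dashed lines mark 2-fold and dotted lines 1.5-fold. All red points but JUNB and USF2 lie above the upper dotted line, and neither blue point lies below the lower one.

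The AP-1 subunits, which pair through leucine zippers to form the transcription factor AP-1, stood higher as a list: all 11 measured members had a difference above 0, 4 were at least 2-fold and 9 at least 1.5-fold higher, none was 1.5-fold lower, and the median was 0.90 against 0.02 over all measured genes. In the second pair the median of the list was 0.62. The counts of this and every later list stand against fixed shares of all 13043 measured genes. Those shares were 1.65% at 2-fold higher, 0.721% at 2-fold lower, 6.75% at 1.5-fold higher and 4.03% at 1.5-fold lower. The share with a difference above 0 was 53.2%. FOS read 84.9 in control and 84.8 with Sonazoid only, against 400.3 with ultrasound only and 398 in the combination, a 4.72-fold and a 4.69-fold difference in the 2 pairs. Both arrays without ultrasound were low and both with it high. How many of all genes showed that order is not given here, so it describes single genes, here and below. FOSB, a close relative of FOS, read 4.13 and 3.56 without ultrasound, both under the floor, and 360 and 307 with it, so the difference was at least 15.1-fold and, in the second pair, at least 12.9-fold. JUN, the main partner of FOS, read 522, 550, 1306 and 1378 in the order control, Sonazoid only, ultrasound only and combination, 2.50-fold higher in each pair. Its 3 other probe sets were higher by 0.58 to 1.52. JUND, the subunit present in resting cells, read 2047, 1877, 3815 and 3408 in that order, which is 1.86-fold higher after ultrasound alone. ATF3, a stress-induced repressor of the family, read 60.4, 33.7, 113 and 145, 1.87-fold higher. BATF, a lymphoid and myeloid member, differed by 0.02.

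Among the EGR, NR4A, IER and KLF immediate early regulators, 5 of the 21 measured were at least 2-fold higher, 10 at least 1.5-fold higher and none 1.5-fold lower, with a median of 0.48 (0.41 in the second pair). KLF6, a zinc finger factor that responds to injury, read 397 in control and 394 with Sonazoid only, against 2852 with ultrasound only and 2968 in the combination, 7.18-fold and 7.54-fold higher. Its 4 other probe sets ran the same way, from 0.87 (a lower bound, at the dimmest) to 3.35. KLF4, which drives monocyte differentiation, read 183, 253, 636 and 838 on those arrays, 3.48-fold higher after ultrasound alone. KLF2, known for its response to flow in endothelium, was under the floor at 5.78 in control and read 25.3, 114 and 124 on the other 3 arrays, at least 4.78-fold higher, though its other probe set differed by only 0.55. The members of the list were not uniform. EGR1, the best known immediate early zinc finger factor, read 334, 359, 277 and 404, so its lowest value was on the ultrasound only array. IER2 differed by 0.13 and MYC, the growth regulator, by -0.26.

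**Figure D4:**
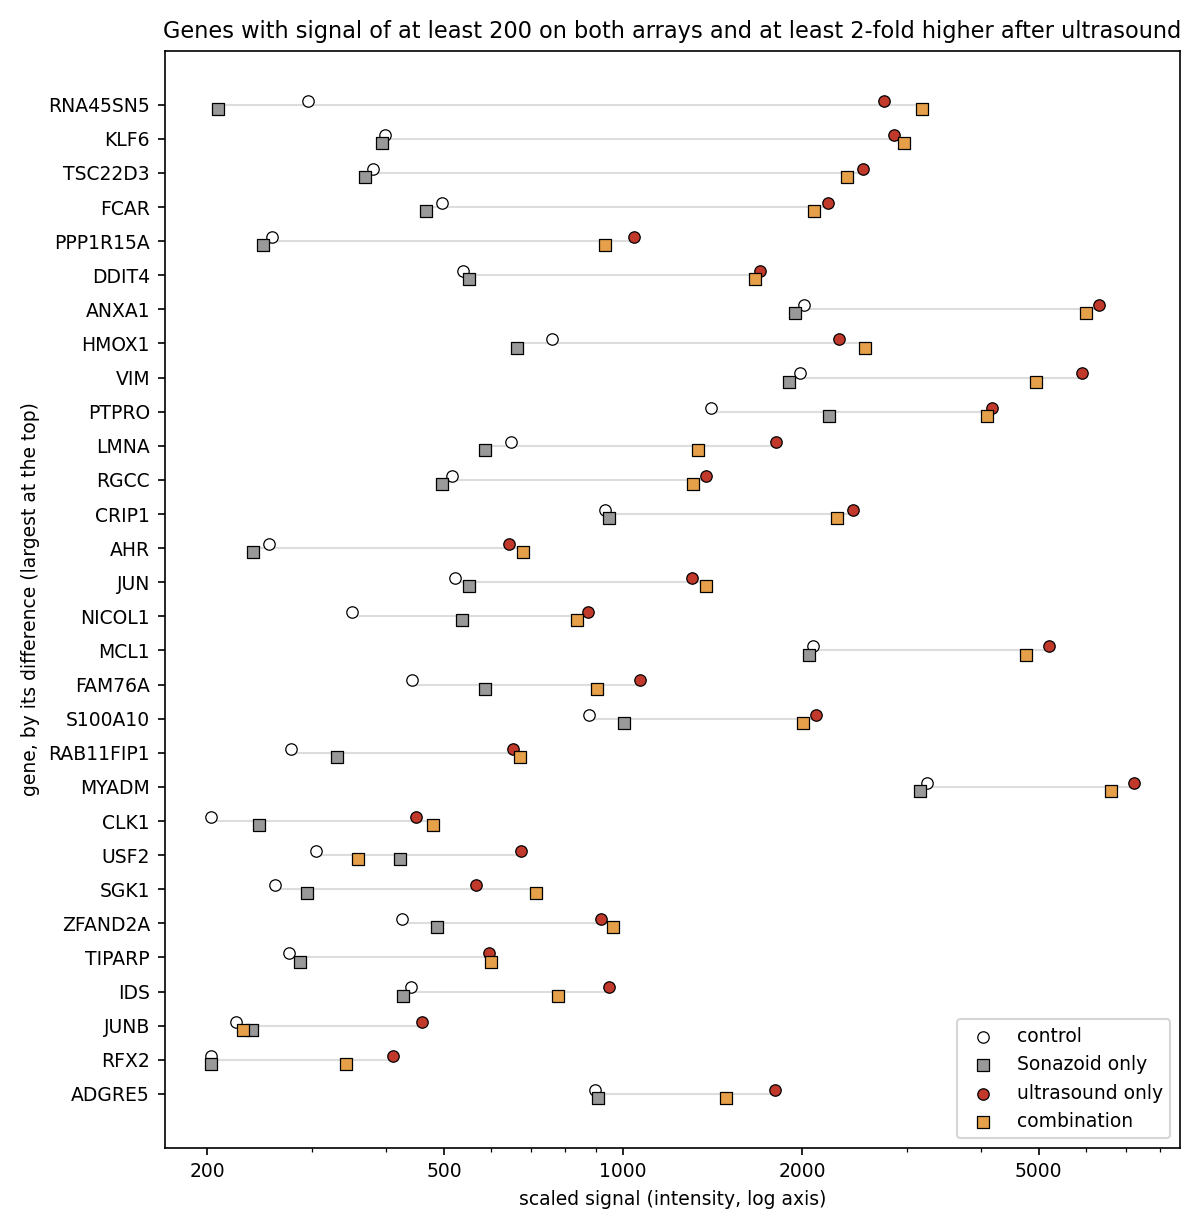
Scaled signal (x axis, log scale) on the 4 arrays for the 30 genes with a signal of at least 200 on the control and ultrasound only arrays and at least 2-fold higher after ultrasound alone, ordered by that difference; circles are control (white) and ultrasound only (red), squares Sonazoid only (grey) and combination (orange). In all genes but JUNB and USF2 the combination lies at least 1.5-fold above Sonazoid only, as ultrasound only lies above control.

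Single brakes on kinase and G protein signalling, such as DUSP1 and RGS2, were among the more strongly higher genes. Of the MAPK phosphatases and feedback inhibitors, 4 of 18 measured were at least 2-fold higher, 6 at least 1.5-fold higher and none 1.5-fold lower. The shares of all measured genes were 1.65%, 6.75% and 4.03%. The median of the list was 0.27, and 0.15 in the second pair. DUSP1, the dual-specificity phosphatase that inactivates p38 and JNK, read 80.8 in control and 73.2 with Sonazoid only, against 296 with ultrasound only and 295 in the combination, 3.67-fold and 4.03-fold higher. Its other probe set was higher by 0.57. TRIB1, a pseudokinase that targets C/EBPalpha for degradation, read 79.2, 45.7, 326 and 539 in the same order, 4.11-fold higher after ultrasound alone. PHLDA1, a pleckstrin homology protein induced by growth factor signalling, read 61.7, 71.8, 368 and 356 on its brightest probe set, 5.96-fold higher, but 1 of its 5 other probe sets ran the opposite way, by -0.83. DUSP10 was 2.16-fold higher on its brightest probe set, at 81.7 in control and 176 after ultrasound, but its other probe set differed by -0.11. DUSP2, DUSP4 and SPRY2 had differences of -0.57, -0.13 and -0.17.

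Among the 14 measured G protein brakes, 2 were 2-fold or more higher and 1 was 2-fold or more lower, and the median was 0.12 (-0.17 in the second pair). RGS2, a GTPase-activating protein for Gq, read 91.7 in control and 72.3 with Sonazoid only, against 543 with ultrasound only and 557 in the combination, 5.93-fold and 7.70-fold higher. RGS1, its relative in lymphoid cells, was under the floor in control at 17.8 and read 49.8 after ultrasound, at least 2.09-fold higher. The other 7 RGS genes measured included RGS10, RGS16, RGS18 and RGS19, whose differences were 0.12, 0.03, -0.12 and -0.01. GRK6, a kinase that desensitizes G protein-coupled receptors, read 427, 518, 177 and 145 on its brightest probe set, 2.41-fold and 3.56-fold lower. Its 3 other probe sets differed by 0.04, -0.02 and 0.27 after ultrasound alone, so the probe sets of that gene disagreed.

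Among the heat shock genes with a probe set of their own, 1 was 2-fold or more higher. HSPA6, an inducible member of the HSP70 family, read 97.3 in control and 58.5 with Sonazoid only, against 780 with ultrasound only and 844 in the combination, 8.02-fold and 14.4-fold higher, and its other probe set was higher by 3.21. Of the 27 listed genes 5 were in no count, because no probe set carried their symbol alone (AHSA1, HSF2, HSPA1A, HSPA1B and HSPA8). The annotation gives 3 probe sets to HSPA1A and HSPA1B together, the inducible HSP70 genes, and 1 of the 3 to a further HSP70 gene too, so their signal cannot be assigned to a single gene. The brightest of the 3 read 680 in control and 774 with Sonazoid only, against 3569 with ultrasound only and 4323 in the combination, 5.25-fold and 5.58-fold higher. The others were 3.52-fold and 2.21-fold higher after ultrasound alone and 3.60-fold and 3.09-fold higher in the second pair. All 3 stood low on both arrays without ultrasound and high on both with it. No other of the 21 measured chaperones and co-chaperones reached 1.5-fold on its brightest probe set, and the median of the list was 0.06. That of HSPA4 differed by -0.50, and another, dimmer probe set of it by -1.65. DNAJB1, the HSP40 partner of inducible HSP70, read 1643, 1604, 2338 and 2313 in that order, 1.42-fold and 1.44-fold higher. HSPH1, HSPD1, HSP90AA1 and HSPB1 had differences of -0.05, 0.03, 0.06 and 0.20. BAG3, a co-chaperone, differed by 0.15 after ultrasound alone and by 0.89 between the combination and Sonazoid only. ZFAND2A (AIRAP), a zinc finger protein induced by proteotoxic stress, read 424, 487, 920 and 963, 2.17-fold higher. None of the 19 measured unfolded protein response genes reached 1.5-fold, and their median was 0.05.

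In the integrated stress response, through which ATF4 is translated when eIF2alpha is phosphorylated, 3 of 24 measured genes were at least 2-fold higher, 5 at least 1.5-fold higher and none 1.5-fold lower. The median was 0.27, and 0.05 in the second pair. PPP1R15A read 257 in control and 248 with Sonazoid only, against 1043 with ultrasound only and 933 in the combination, 4.06-fold and 3.77-fold higher, and its other probe set was higher by 1.89. DDIT4 (REDD1), an inhibitor of mTORC1, read 538, 550, 1700.2 and 1666 in that order, 3.16-fold higher. Both genes had low values without ultrasound and high values with it. The amino acid enzymes of the list stayed under 1.5-fold: the differences of ASNS, PSAT1, PHGDH and SHMT2 were 0.32, -0.15, 0.01 and 0.18. ATF4 itself read 3916, 4013, 5075 and 5825, 1.30-fold higher. TRIB3, a pseudokinase of that pathway, differed by -0.09.

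HMOX1, the heme oxygenase that degrades heme, read 758 in control and 663 with Sonazoid only, against 2306 with ultrasound only and 2550.0 in the combination, 3.04-fold and 3.85-fold higher. It was the only one of the 23 measured NRF2 and oxidative stress genes at 1.5-fold or more, and the median of that list was 0.07. NQO1, GCLM, TXNRD1 and SRXN1, which NRF2 is known to control, had differences of 0.16, -0.34, -0.07 and 0.42. Of the 9 measured metallothionein and zinc genes, the zinc exporter SLC30A1 was 1.53-fold higher, at 1411 in control and 2163 after ultrasound, and the others stayed under 1.5-fold.

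Genes known to be induced by glucocorticoids had a median of 0.50 over 14 measured, with 4 at least 2-fold higher, 6 at least 1.5-fold and none 1.5-fold lower. This list shares DUSP1, DDIT4, SGK1 and ZFP36 with other lists described here. PER1 of this list was in no count, because no probe set carried its symbol alone. The probe sets of PER1 were 1.40-fold and 1.20-fold lower after ultrasound alone. In the second pair they were 1.28-fold and 1.52-fold lower. TSC22D3 (GILZ) read 380 in control and 369 with Sonazoid only, against 2536 with ultrasound only and 2384 in the combination, 6.67-fold and 6.46-fold higher, and its other measured probe set was higher by 2.15. SGK1, a kinase of ion transport and survival, read 260, 294, 565 and 715 in that order, 2.18-fold higher. FKBP5, a co-chaperone of the glucocorticoid receptor and a common marker of its activity, read 3147, 3261, 2955 and 3087, differences of -0.09 and -0.08. ZFP36 (tristetraprolin), which destabilizes AU-rich mRNA, read 198, 215, 392.3 and 321, 1.98-fold higher. No other of the 13 measured AU-rich decay factors was 1.5-fold higher.

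The aryl hydrocarbon receptor AHR read 254 in control and 238 with Sonazoid only, against 644 with ultrasound only and 678 in the combination, 2.54-fold and 2.85-fold higher. TIPARP, a poly-ADP-ribosyltransferase that represses AHR, read 274, 286, 594 and 600 in that order, 2.17-fold higher. Both receptor and repressor were higher on both arrays with ultrasound. CYP1A1, the monooxygenase most closely tied to AHR, read 62.9, 66.9, 38.5 and 39.4, 1.63-fold lower at a dim signal. ARRDC3, an arrestin-domain adaptor, read 30.4 in control and 70.3 after ultrasound, 2.31-fold higher, and its relative TXNIP read 500 and 685, 1.37-fold higher.

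Several bright genes encode proteins of the membrane and of the scaffold beneath it and around the nucleus. ANXA1, an annexin that binds membranes in the presence of calcium and takes part in their repair, read 2013 in control and 1949 with Sonazoid only, against 6326 with ultrasound only and 6005 in the combination, 3.14-fold and 3.08-fold higher. Of the 14 measured annexins and S100 partners, 3 were at least 2-fold higher and the median was 0.12. The other annexins measured, ANXA2, ANXA4, ANXA5, ANXA6, ANXA7 and ANXA11, had differences between -0.06 and 0.27. S100A10, the partner of ANXA2, read 878, 1002, 2112 and 2008 in that order, 2.41-fold higher. ANXA2P2, an annexin A2 pseudogene, read 2620, 2411, 1495 and 1209, 1.75-fold lower; its probe set can share targets with ANXA2, whose own difference was 0.27.

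VIM, the intermediate filament protein vimentin, read 1980 in control and 1899 with Sonazoid only, against 5915 with ultrasound only and 4939 in the combination, 2.99-fold and 2.60-fold higher. LMNA, the nuclear lamin A/C, read 648, 587, 1805 and 1335 in that order, 2.78-fold higher, with its 4 other probe sets higher by 0.42 to 1.71. Both showed 2 low and 2 high arrays. MYADM, a membrane protein of lipid rafts, read 3245, 3161, 7220 and 6606, 2.22-fold higher. EMP1, an epithelial membrane protein, read 51.6, 56.2, 207 and 213, 4.01-fold higher, and its other probe set was higher by 2.28. CRIP1, a cysteine-rich LIM protein, read 934, 947, 2432 and 2290, 2.60-fold higher.

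Of the 19 measured genes of membrane repair and mechanosensitive channels, 1 was 2-fold or more higher and 3 were at least 1.5-fold higher, with a median of 0.08 (0.00 in the second pair). PIEZO1, a mechanically gated cation channel, read 717 in control and 820 with Sonazoid only, against 1140 with ultrasound only and 891 in the combination, 1.59-fold higher after ultrasound alone and 1.09-fold between the others. PANX1, a pannexin channel that releases ATP, read 242, 315, 418 and 446 in that order, 1.73-fold higher. SYT7, a calcium sensor of lysosome exocytosis, was under the floor in control and read 49.3 after ultrasound, at least 2.07-fold higher, and it was under the floor on both arrays with Sonazoid. The SRF and actin cytoskeleton list had none at 2-fold among 15 measured, and SRF itself differed by 0.03.

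Among receptors of the monocyte lineage, FCAR, the Fc receptor for IgA, read 495 in control and 467 with Sonazoid only, against 2211 with ultrasound only and 2092 in the combination, 4.46-fold and 4.48-fold higher. Of its 3 other probe sets, 2 were higher by 1.95 and 2.08 and the dimmest differed by -0.57, a bound. TREM1, an amplifier of innate responses, read 74.4, 76.0, 199 and 168 in that order, 2.67-fold higher. The differentiation list had 4 of 18 measured genes at 2-fold or more and a median of 0.13. FCGR2A, TLR2 and TLR4 had differences of -0.24, -0.08 and -0.10, and CD14, CD163 and MRC1 were under the floor on both arrays. PTPRO, a receptor tyrosine phosphatase, read 1405, 2223, 4171 and 4087, 2.97-fold higher after ultrasound alone and 1.84-fold between the others, since the Sonazoid only array stood above the control. ADGRE5 (CD97), an adhesion receptor, read 898, 908, 1800.1 and 1490.4, 2.00-fold higher.

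Of 14 measured inflammatory cytokines and chemokines, 2 were at least 2-fold higher, 3 at least 1.5-fold, and the median was 0.21. TNF, the cytokine, read 120 in control and 111 with Sonazoid only, against 265 with ultrasound only and 206 in the combination, 2.21-fold and 1.86-fold higher. CXCL2, a neutrophil chemokine, read 84.5, 57.2, 164 and 206 in that order, 1.94-fold higher. The NF-kB inhibitors and feedback genes included NFKBIA, at 901, 862, 1453 and 1354, 1.61-fold higher, and TNFAIP3 (A20), at 414, 443, 679 and 678, 1.64-fold higher. Of that list, 5 of 15 were at least 1.5-fold higher and the median was 0.13. Of its 17 listed genes 2, BCL3 and BIRC3, were in no count. On a probe set that does not carry its symbol alone, BCL3 read 42.4, 34.4, 94.7 and 89.6, 2.23-fold and 2.61-fold higher. Another BCL3 probe set read 24.8 after ultrasound alone and was under the floor on the other arrays. RELB, a subunit, read 98.4, 96.7, 204 and 121, 2.07-fold higher after ultrasound alone and 1.25-fold between the others.

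Interferon-stimulated genes included 2 of 24 measured at 2-fold or more higher, 5 at 1.5-fold or more higher and 1 at 1.5-fold or more lower, with a median of 0.13. IFIT1, which binds foreign RNA ends, read 30.1 in control and 43.0 with Sonazoid only, against 155 with ultrasound only and 152 in the combination, 5.14-fold and 3.53-fold higher. IFIT2 was under the floor without ultrasound and read 122 and 132 with it, a difference of at least 5.14-fold and, in the second pair, of at least 5.55-fold. IFIT3 read 136, 153, 227 and 254, 1.67-fold higher. All 3 were higher on both arrays with ultrasound.

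MCL1, a short-lived anti-apoptotic member of the BCL2 family, read 2085 in control and 2057 with Sonazoid only, against 5199 with ultrasound only and 4762 in the combination, 2.49-fold and 2.32-fold higher, and its 5 other probe sets were higher by 0.81 to 1.62. None of the other 12 measured anti-apoptotic genes reached 2-fold, and the median of the list was -0.02 (0.17 in the second pair). Among the 22 pro-apoptotic genes none reached 2-fold on its brightest probe set and the median was 0.01. PMAIP1 (NOXA), which neutralizes MCL1, read 745, 705, 1069 and 1260.1 in that order, 1.43-fold and 1.79-fold higher. Its other, dimmer probe set read 266, 304, 701 and 704, 2.64-fold and 2.31-fold higher. CDKN1A (p21), a cell cycle inhibitor, read 77.0, 33.0, 148 and 132.9, 1.92-fold higher after ultrasound alone.

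Where both arrays lay above the floor, the largest difference was that of RNA45SN5, 1 of several near-identical copies of the 45S ribosomal RNA precursor, which cannot be told apart by such probes. It read 296 in control and 208 with Sonazoid only, against 2749 with ultrasound only and 3181 in the combination, 9.30-fold and 15.3-fold higher. Its second probe set read 67.8, 87.9, 741 and 770, higher by 3.45. The other members of the Pol I list did not run with it: of 18 measured it was the only one at 1.5-fold, and POLR1A and POLR1E had differences of -0.42 and -0.31. The 17 measured ribosomal protein genes were above 0 in 16 cases, with a median of 0.13, at bright signals where ACTB differed by 0.14 and GAPDH by 0.10. Over all measured genes 53.2% lay above 0.

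The remaining bright genes at 2-fold or more higher were RGCC, a cell cycle regulator (2.67-fold), NICOL1 (2.49-fold), FAM76A (2.42-fold), RAB11FIP1, a Rab11 effector of endosome recycling (2.37-fold), CLK1, a kinase of splicing factors (2.21-fold), IDS, a lysosomal sulfatase (2.15-fold), and RFX2, a factor of ciliary genes (2.02-fold). All of them were at least 1.5-fold higher in the second pair, RGCC by 2.65-fold and NICOL1 by 1.56-fold. FAM76A, RAB11FIP1, IDS and RFX2 have several probe sets, whose lowest differences were -0.14, 0.06, 0.05 and -0.29. Of the higher genes with another measured probe set, 31 of 72 (43.1%) had one that was 1.5-fold higher too. Among genes that were not 2-fold different that share was 11.7%.

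Some strongly higher genes did not repeat, and others repeated at a smaller fold. H3C8, a replication-dependent histone, read 39.7 in control and 85.4 with Sonazoid only, against 190 with ultrasound only and 108 in the combination, 4.78-fold higher after ultrasound alone and 1.26-fold between the others. SOX13, an HMG box factor, read 29.4, 68.4, 108 and 63.5 in that order, 3.66-fold higher and then 1.08-fold lower, while its other probe set differed by 0.22 after ultrasound alone. In both the control array was the lowest and the ultrasound only array the highest. ADM2 (intermedin), a peptide hormone, was under the floor at 10.7 in control and read 62.4, 108 and 28.6 on the others, so that it was at least 4.54-fold higher after ultrasound alone and 2.18-fold lower in the second pair. FAM83G was at least 4.41-fold higher and then 1.44-fold lower. CSF1R, the receptor of macrophage colony-stimulating factor, was 2.85-fold and then 1.38-fold higher, from 32.7 in control. Smaller in the second pair, but still 1.5-fold or more higher there, were CAMKV (4.07-fold and then 1.85-fold higher), SLIRP-OT1 (4.01-fold and then 1.65-fold) and MATCAP2 (3.75-fold and then 2.41-fold), all from a control signal under 29.

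Lower genes were fewer and dimmer. The largest difference was that of LINC00342, a long noncoding RNA, which read 210 in control and 47.0 with Sonazoid only, against 43.2 with ultrasound only and 53.4 in the combination, 4.86-fold lower after ultrasound alone and 1.14-fold higher in the second pair. Only the control array was high, and its 2 other probe sets differed by -0.36 and -0.23. KLHL36, a BTB-Kelch protein, showed the same picture at 495, 229, 234 and 231, while its other probe sets were higher by 0.55 and 0.75. SLC34A3, a phosphate transporter, read 288, 46.6, 103 and 157, 2.80-fold lower and then 3.37-fold higher. KIAA1549, TFAP4, PITX1-AS1, PPP3CB-AS1, HAPLN3, UBBP2, RAD9B and ASPRV1 were 2.36-fold to 3.26-fold lower. In the second pair ASPRV1 was just under 2-fold lower and HAPLN3 1.61-fold lower. UBBP2 was 1.55-fold higher there, and the others were 1.36-fold lower to 1.46-fold higher.

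The 2 bright genes at 2-fold or more lower were KLHL36 and NUP58, a nucleoporin that read 604 in control and 509 with Sonazoid only, against 282 with ultrasound only and 360 in the combination, 2.15-fold and 1.42-fold lower. The other probe sets of NUP58 differed by -0.53 to 0.34. FBXO46, DNAAF2, RWDD3, CCDC127 and MAP7D3 were 1.76-fold to 1.98-fold lower after ultrasound alone. Of these, DNAAF2 and MAP7D3 were 1.47-fold lower in the second pair. The others differed by 0.03 to 0.14 there. Of bright genes at least 1.5-fold lower, the 3 that repeated were GFI1, a repressor of myeloid progenitors at 1947, 1986, 1293 and 1237 (1.51-fold and 1.61-fold lower), the ubiquitin ligase G2E3 (differences of -0.63 and -0.95) and ANXA2P2. The 4 genes at 2-fold or more lower in both pairs were GRK6, PRSS22, NLGN2 and VAC14. VAC14, a scaffold of phosphoinositide kinase, was named after its values were seen; its difference was -1.95 after ultrasound alone, while its other probe set was higher by 0.87. NLGN2 and PRSS22, like PLEK2, KREMEN2 and PTGDS, were under the floor after ultrasound, at least 4.04-fold and at least 3.36-fold lower. Of the lower genes with another measured probe set, 2 of 26 (7.69%) had one that was 1.5-fold lower too, against 12.2% among genes that were not 2-fold different.

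Across the 39 gene lists, 6 had a median of 0.25 or more, none of -0.25 or less, and 33 lay between. The 6 were the AP-1 subunits, the glucocorticoid-inducible genes, the immediate early regulators, the MAPK brakes, the AHR axis and the integrated stress response. In that order their medians in the second pair were 0.62, 0.48, 0.41, 0.15, 0.34 and 0.05. In 16 lists no member reached 2-fold either way, and 2 lists held a member at 2-fold lower (GRK6 and CLOCK, a circadian factor at 115 in control and 56.9 after ultrasound on its brightest probe set). That probe set of CLOCK did not repeat, at 88.8 with Sonazoid only and 99.1 in the combination. The 3 other probe sets of CLOCK differed by -0.06, -0.01 and 0.05 after ultrasound alone. Among 29 G2/M and mitosis genes none reached 1.5-fold, 6 were above 0, and the median was -0.08 (-0.18 in the second pair). Of all measured genes 53.2% were above 0. TOP2A and TTK, both of mitosis, read 3429 and 969 in control and 2520.0 and 713 after ultrasound. Of 28 G1/S and replication genes none reached 1.5-fold and the median was 0.04. Proteasome subunits, nuclear-encoded oxidative phosphorylation and lysosome genes likewise held no member at 1.5-fold, with medians of 0.05, 0.08 and 0.09. Of 326 ZNF genes, 4 were 2-fold or more higher; 25 were 1.5-fold higher and 12 lower, with a median of 0.04.

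**Figure D5:**
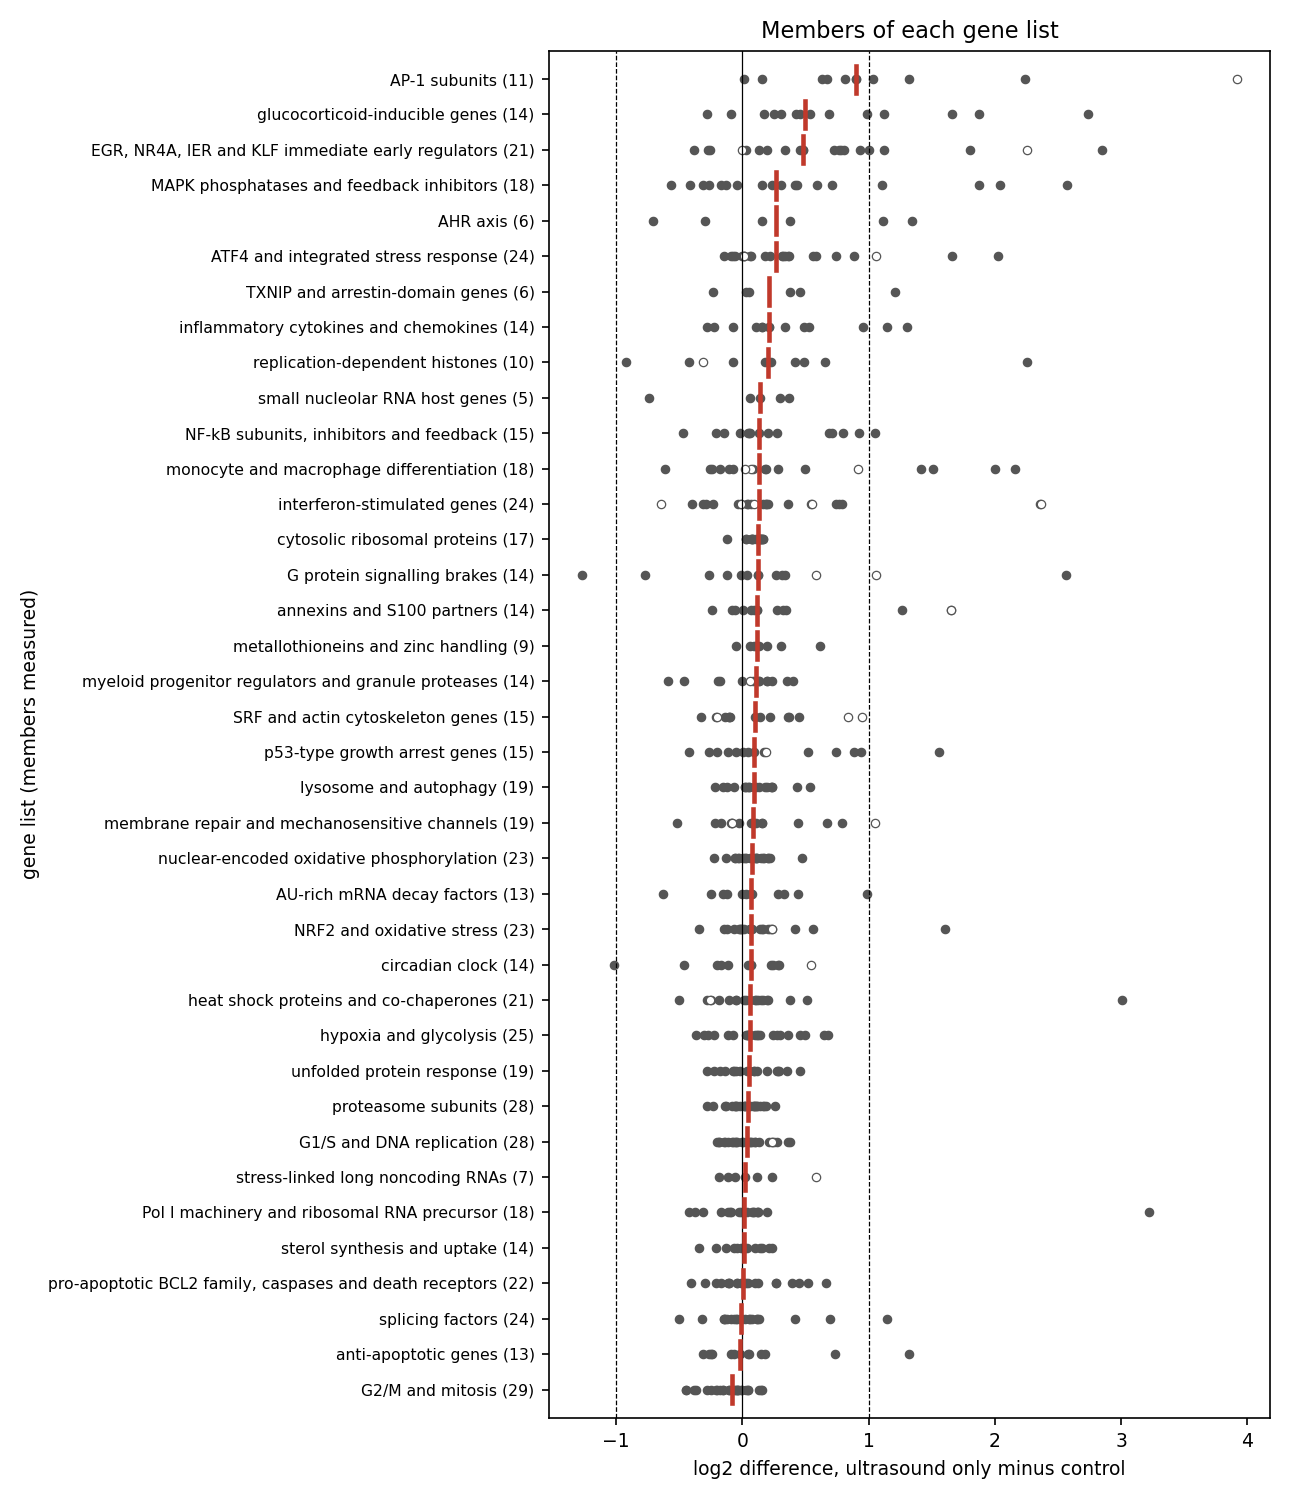
Log2 difference (ultrasound only minus control, x axis) of each measured member of the gene lists (y axis, measured members in brackets), the zinc finger list left out; filled points were above the floor on both arrays, open points are bounds with 1 array at the floor, red bars are medians and dashed lines mark 2-fold. The AP-1 list has the highest median, 0.90, and most lists have single members far from a median near 0.

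Markers of the labelled cell line were present. Of 11 markers of myelomonocytic U937 cells, 10 were above the floor on each array, with a summed signal of 34314 in control and 38503 after ultrasound, and MPO was under it on both. Summed signals of the other cell types were 3115 and 3395 for T and NK cells, 332 and 316 for B cells, 155 and 152 for erythroid cells and platelets, 130 and 164 for epithelium and 955 and 1026 for fibroblasts and endothelium. CD3D, CD3G, CD8A and GNLY, EPCAM and KRT18, and LUM and VWF were under the floor on both arrays. Other members of the same lists were above it on both. In the T and NK list these included IL7R and CD5, each far below the summed signal of that list. NKG7 of the T and NK list, also above the floor on both arrays, carried most of that sum on each. MUC1 of the epithelial list was also above it on both. In the fibroblast and endothelium list PECAM1 read 698 in control and 810 after ultrasound, most of the summed signal. COL1A1 of that list read 131 and 81.2. For ACTB the ratio of 3' to 5' signal was 1.16 in control and 1.19 after ultrasound, for GAPDH 0.987 and 1.01, and for ISGF3A, a dimmer control, 6.47 and 9.21. The 9 hybridisation spikes differed by -0.24 to 0.08 between the arrays, with a median of -0.14. The part of RNA quality or of the labelling in the differences above was not tested. With 1 array a group it cannot be told apart from the treatment. Between ultrasound only and control, the 3 h of incubation cannot be told apart from the treatment either. In the second pair both arrays had 3 h of incubation.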

How the data were processed

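The deposited values are intensity values on a linear scale, 1 per probe set and array, made by the authors from total RNA treated with DNase and labelled with the manufacturer's one-cycle 3' kit, per the labels' protocols. How probes were summarised, any scaling and the detection calls are given in none of the sources used here. Trimmed means of the 4 arrays (2% off each end) differed 1.16-fold, so every array was brought to their common value by a single factor: 1.04 (control), 0.977 (Sonazoid only), 1.07 (ultrasound only) and 0.923 (combination). The floor was the median over all scaled values, 23.8; lower values were raised to it before log2 was taken, and a difference with 1 array at the floor is a lower bound. Of 54675 probe sets, 41097 had 1 gene symbol, 1801 several and 11777 none. Genes whose probe sets all carry several symbols are in no count. The RefSeq gene table of GRCh38.p14 gave current symbols for 41043 of them by Entrez identifier. The brightest probe set by mean signal over the 4 arrays stood for each gene.

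Named by rule were the 16 highest and 10 lowest differences with both arrays above the floor and no probe set running the other way, the 10 highest and 6 lowest of those with 200 or more signal on both, the 5 largest bounds each way, up to 5 members of each gene list, ACTB and GAPDH, and genes that departed most from the second pair. The members, lists and thresholds were chosen with earlier results of these data known. Promoters are those of RefSeq, build GRCh38.p14. No test between groups was possible with 1 array a group, and the number of arrays limits the precision. Alternatives were other scalings, floors, probe set rules and fold thresholds. Scripts ran in Python 3.11.15 with numpy 2.4.6 and pandas 2.3.3 and were tested on simulated data.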

Additional observations from a re-analysis of the deposited data

Results flagged for a closer look

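Of the genes that were 2-fold or more different after ultrasound alone, 34 were 1.5-fold or more different the opposite way between the combination and Sonazoid only. They were 20 of the 201 higher genes and 14 of the 86 lower genes measured in both pairs. Of all 12009 genes measured in both pairs, 4.14% were 1.5-fold lower in the second pair and 5.61% higher. From the floor to 50 and from 50 to 100, 12.4% and 9.16% of all genes were lower there, and 16.1% and 12.2% higher. Of the 34, 33 had signals under 200 on both the control and ultrasound only arrays. For those of the 34 that are among the named genes, the log2 differences after ultrasound alone were as follows. They were 2.18 for ADM2 (a lower bound), -1.89 for KREMEN2 (a bound), -1.48 for SLC34A3, -1.31 for UBBP2, 1.22 for ZNF527 and 1.07 for ZNF296. In the second pair these were -1.13, 0.59, 1.75, 0.63, -0.61 and -0.62. The difference between the pairs was not tested, since each holds 1 array a side.

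Among the 13522 probe sets without 1 gene symbol, which no count of genes includes, 16 had a signal of 200 or more after ultrasound alone and were at least 2-fold higher there than in control, and 4 of the 16 had 200 or more in control too. Of these, 11 had no symbol and 5 had several, 7 were at least 1.5-fold higher in the second pair, and the largest was 5.25-fold higher. The 3 that carry the symbols of HSPA1A and HSPA1B are among the 5. Of the 13522, 6 had a signal of 200 or more in control and were at least 2-fold lower. Where control and ultrasound only both read 200 or more, 4 of these probe sets passed 2-fold upwards and 4 downwards. Of the 4 upward ones, 3 repeated at 1.5-fold in the second pair. Among genes of that brightness the upward and downward counts were 30 and 2. How many of the 13522 were that bright is not given here, so no share can be stated.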

How the results depend on the processing

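The counts depended most on the floor. With the stricter floor (the 75th percentile of all values) 39 genes were 2-fold higher and 3 lower, all of them among the 215 and 94, and 94.9% of the higher ones repeated at 1.5-fold in the second pair. With no floor and an offset of 32 added, 109 were higher and 47 lower. At a threshold of 1.5-fold the counts were 880 and 525, and with 2-fold asked of the second pair the repeat was 24.4%. Deposited values, quantile normalisation and median scaling gave 174, 207 and 196 higher and 96, 97 and 108 lower genes; the mean of a gene's probe sets gave 176 and 74, and gene-specific probe sets 167 and 85. Each count is within 1.5 times the main one, and each of these scalings moved the median of all genes by less than 0.1 on the log2 scale. KLHL36 differed by 0.073 as the mean of its probe sets, the reverse of its brightest one. Under the mean of probe sets 52 named genes moved, and TRIB1, DUSP1, LINC00342 and GRK6 came to 1.06, 1.22, -0.96 and -0.24; under the stricter floor FOS and IFIT1 came to 1.41 and 0.04. Gene-specific probe sets turned the histone list's median to -0.31. List medians within 0.1 of 0 carry no direction. No paired analysis was possible because each group has 1 array and replicate numbers pair nothing. Signals near the floor limit the lower genes most.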

Other observations

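Some genes outside the lists were 2-fold or more higher in both pairs of arrays, and were picked after their values were seen. TNFRSF12A, the receptor of the cytokine TWEAK, read 198 in control and 202 with Sonazoid only, against 506 with ultrasound only and 414 in the combination. SAMHD1, a phosphohydrolase that limits the nucleotide pool of myeloid cells, read 50.6, 48.5, 152 and 117 in that order, and TICAM1 (TRIF), an adaptor of Toll-like receptors, 39.2, 36.4, 105 and 94.1. CBLB, a ubiquitin ligase of receptor signalling, read 63.0, 57.8, 132 and 139. In each of these genes both arrays with ultrasound lay above both without it, which follows largely from how they were picked. SAMHD1, TICAM1 and CBLB are dim.

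Among 25 measured hypoxia and glycolysis genes none was 2-fold different after ultrasound alone and the median was 0.06. The hormone ADM and the regulator PFKFB4 were the members at 1.5-fold, 1.60-fold and 1.56-fold higher, and 1.79-fold and 1.62-fold higher in the second pair. Among 24 splicing factors CLK1 was the only one at 2-fold, HNRNPA1 was 1.62-fold higher on its brightest probe set but by 0.021 on the log2 scale over the mean of all its probe sets, while the median was -0.01. None of 14 sterol synthesis genes reached 1.5-fold.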
